A study of Mus musculus with 15 samples.

Results

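The miR-26 microRNAs (miRNAs) of mouse plasma were followed through 3 entries of a small RNA count table: mmu-miR-26a-5p, mmu-miR-26b-5p and mmu-miR-26b-3p, written below without the species prefix. They were chosen by name, as the rows of the table that hold 1 of these names, which gave 3 of 1205 rows. All 3 were among the 426 rows abundant enough to be tested.

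The libraries came from platelet-free plasma of male wild-type C57BL/6J mice, taken 24 h after surgery. In 6 samples the surgery was a sham operation, and in 9 it was cecal ligation and puncture (CLP), in which the cecum is tied off and pierced so that gut bacteria reach the abdomen, a standard model of polymicrobial sepsis. No transgene or drug was named for either group. Whether a number stands for its own animal is not stated in the labels, and p-values therefore refer to the spread among libraries, which may be technical in part.

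miRNAs are short RNAs that guide Argonaute proteins to messenger RNAs, mainly through bases 2 to 8 of the miRNA, the seed. The miR-26 genes lie in introns of the Ctdsp genes, which encode small phosphatases that act on the C-terminal domain of RNA polymerase II. miR-26 is made in most tissues, is known as a brake on cell growth, is repressed by the transcription factor MYC, and targets the gene of the Polycomb methyltransferase Ezh2. In plasma, miRNAs travel in vesicles or bound to proteins, and come from blood cells and from tissues.

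The mature sequences show which entries can act on the same targets and which can be mistaken for each other, and are given 5′ to 3′ with the seed in capitals (RefSeq, GRCm38.p6):
miR-26a-5p: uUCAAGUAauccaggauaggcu
miR-26b-5p: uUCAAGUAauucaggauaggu
miR-26b-3p: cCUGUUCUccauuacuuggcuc
miR-26a-1-3p: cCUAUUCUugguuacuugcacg
miR-26a-2-3p: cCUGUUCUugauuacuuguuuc

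The pair of 5p miRNAs had the same seed, and no other row of the table with a RefSeq sequence (1003 of 1205 rows) carried it. Aligned from the 5′ end, 19 of 21 positions were the same. The substitutions, with the miR-26a-5p base first and positions counted from its 5′ end, were C11U and C21U, and miR-26a-5p had 1 further base at its 3′ end. miR-26b-3p comes from the opposite arm of the miR-26b hairpin, and its seed equals that of miR-26a-2-3p. GC content was 40.9% in miR-26a-5p, 33.3% in miR-26b-5p and 50.0% in miR-26b-3p.

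The hairpins show which entries come from which gene, and are given with their mature arms in capitals (RefSeq, GRCm38.p6, all on the plus strand):
Mir26a-1: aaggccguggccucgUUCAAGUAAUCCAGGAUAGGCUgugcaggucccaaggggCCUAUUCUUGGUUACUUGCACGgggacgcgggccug
Mir26a-2: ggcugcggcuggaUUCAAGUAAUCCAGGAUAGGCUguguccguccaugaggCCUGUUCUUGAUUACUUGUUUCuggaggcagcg
Mir26b: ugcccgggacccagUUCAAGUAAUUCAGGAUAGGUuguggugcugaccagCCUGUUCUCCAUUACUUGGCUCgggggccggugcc

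Mir26a-1 lies at chr9:119031796-119031885, in intron 5 of Ctdspl. Mir26a-2 lies at chr10:126995530-126995613, in intron 5 of Ctdsp2. Mir26b lies at chr1:74394310-74394394, in intron 4 of Ctdsp1 (GENCODE M21 on GRCm38, longest transcript span of each gene, all on the host's strand). Both miR-26a genes give the same miR-26a-5p, so its count cannot be assigned to either, and only the 3p arms tell the genes apart. Host gene transcripts were not analysed here.

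Library totals ran from 5274676 to 13576482 counts. Levels below are CPM, counts scaled to library sizes adjusted by the trimmed mean of M-values (TMM), and fold changes are CLP against sham. At an adjusted p under 0.05, 47.2% of the 426 tested miRNAs were called, 25.4% higher and 21.8% lower in CLP, and the median log2 fold change was 0.11. With scaling by library size alone this median was -0.12, and the higher calls made up 41.7% of all calls in place of 53.7%. Markers of cell types, few in each list, are given with their shares, to be set beside the 25.4% and 21.8% of all tested. Striated muscle miRNAs rose in 4 of 7 (57.1%) and fell in 0, with a summed level of 482 to 7253 CPM in sham and 5022 to 40714 CPM in CLP. Platelet-associated miRNAs rose in 1 of 4 (25%) and fell in 2 (50%), with summed levels of 44004 to 60565 CPM in sham and 24152 to 33662 CPM in CLP. The lower sum came mainly from miR-191-5p, with a mean of 37342 CPM in sham and 5450 CPM in CLP. The entry that rose was miR-24-3p, with means of 11005 and 19713 CPM, so the list did not move as a whole. Of 6 red cell entries 1 rose and 1 fell, 16.7% each and below the shares of all tested (158650 to 457382 CPM in sham, 82972 to 380305 CPM in CLP). Of 5 hepatocyte miRNAs 2 rose (40%) and 0 fell, and of 6 myeloid ones 3 rose (50%) and 0 fell. Of 5 lymphocyte ones 2 rose and 2 fell (40% each). Of 4 pancreas ones 1 rose (25%, near the share of all tested) and 0 fell. No marker with a row of its own or a shared row was at 0 in all libraries, and miR-197-3p of the platelet list had no row. The part of these markers in the miR-26 results was not tested. Removing the red cell entries, as done below, changes the scaling and leaves the miR-26 counts as they are.

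The 3 miR-26 entries did 3 different things after CLP. The abundant miR-26a-5p fell to 0.561 of its sham level, the scarcer miR-26b-5p rose 2.22-fold, and the change of miR-26b-3p did not pass the test. So 1 of 3 members was called higher and 1 lower, against the 25.4% and 21.8% of all tested miRNAs given above. Levels in CPM are relative to the other miRNAs of a library, and amounts per volume of plasma were not obtained here. Whether the amount of any member in plasma changed was therefore not tested. In plasma RNA, fewer cells that release a miRNA and less release per cell cannot be told apart.

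miR-26a-5p held 3210, 3370, 4728, 2134, 4088 and 3682 CPM in sham libraries 1 to 6. In CLP it ran from 1260 CPM (CLP 6) through a median of 2029 to 2711 CPM (CLP 7), with 1367 CPM in CLP 1. The groups overlapped through sham 4 alone: the other 5 sham libraries lay above all 9 CLP libraries. The means were 3535 ± 877 CPM (SD, n = 6) and 1984 ± 474 CPM (n = 9). The log2 fold change was -0.83 ± 0.20 (SE; edgeR adjusted p = 0.00250). It ranked 32nd of the 426 tested miRNAs by mean CPM in sham and 42nd in CLP.

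miR-26b-5p held 68.4, 106, 126, 64.2, 64.5 and 48.6 CPM in sham libraries 1 to 6. In CLP it ran from 103 CPM (CLP 8) through a median of 166 to 260 CPM (CLP 9), with 237 CPM in CLP 1 and 218 CPM in CLP 6. Of the 9 CLP libraries 7 lay above every sham library, and CLP 3 and CLP 8 lay below sham 3. All 9 lay above every sham library for 8.45% of the tested miRNAs, and below every sham library for 11.3%. The means were 79.6 ± 29.8 CPM (SD, n = 6) and 177 ± 53.1 CPM (n = 9). The log2 fold change was 1.15 ± 0.25 (SE; edgeR adjusted p = 0.00111). The rank by mean CPM went from 127 in sham to 95 in CLP. After removal of the trend of counts with GC content in each library, the rise of miR-26b-5p came to 0.53 and the change of miR-26a-5p to -1.16 (adjusted p by edgeR, 0.0410 and 0.000117).

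miR-26b-3p, the scarcer arm of the miR-26b hairpin, held 7.74, 4.62, 11.6, 12.2, 9.34 and 10.6 CPM in sham libraries 1 to 6. In CLP it ran from 5.37 CPM (CLP 5) through a median of 9.31 to 12.6 CPM (CLP 1). These levels rested on 36 to 134 counts per library, and the groups overlapped. The means were 9.36 ± 2.82 CPM (SD, n = 6) and 9.17 ± 2.08 CPM (n = 9). The log2 fold change was -0.03 ± 0.24 (SE; edgeR adjusted p = 0.927), so a change of this size could not be told from the spread between libraries.

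**Figure D1:**
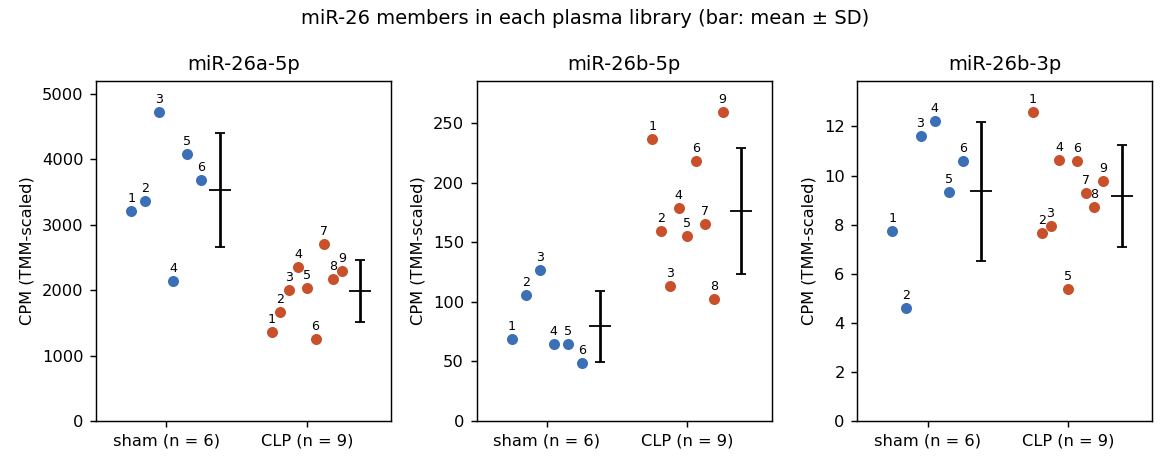
Level of each miR-26 member in every library (CPM, linear axis from 0; points carry the replicate number, bars are the mean ± SD of 6 sham and 9 CLP libraries). miR-26a-5p is lower in CLP except against sham 4, miR-26b-5p is higher in 7 CLP libraries than in any sham library, and miR-26b-3p overlaps.

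The other 3p arms were read only a few times. miR-26a-1-3p had 14 counts in all over 3 of 6 sham libraries and 10 counts over 4 of 9 CLP libraries. miR-26a-2-3p had 6 counts over 2 sham libraries and 8 counts over 4 CLP libraries. No library held more than 6 counts of either, and both were too low to be tested. A count of 0 allowed up to 0.502 CPM in the shallowest sham library and 0.547 CPM in the shallowest CLP library (3 counts each, counting error only). Which of the miR-26a genes supplied the plasma miR-26a-5p could not be read from these counts.

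The make-up of the family shifted toward miR-26b-5p. It made up 2.25% ± 0.724 (SD, n = 6) of the miR-26 5p counts in sham and 8.69% ± 3.84 (n = 9) in CLP. The highest sham share was that of sham 2, 3.04% (95% Wilson interval 2.84% to 3.25%), and the lowest CLP share that of CLP 8, 4.53% (4.21% to 4.88%). The share reached 14.8% in both CLP 1 (14.1% to 15.5%) and CLP 6 (14.3% to 15.3%), the libraries with the lowest miR-26a-5p. Most of the counts that the share is taken of are miR-26a-5p, so a low level of it raises the share by itself. The intervals cover the counting error of reads only. No molecular identifiers were named in the labels, so copies of a molecule made by PCR were counted as separate reads.

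**Figure D2:**
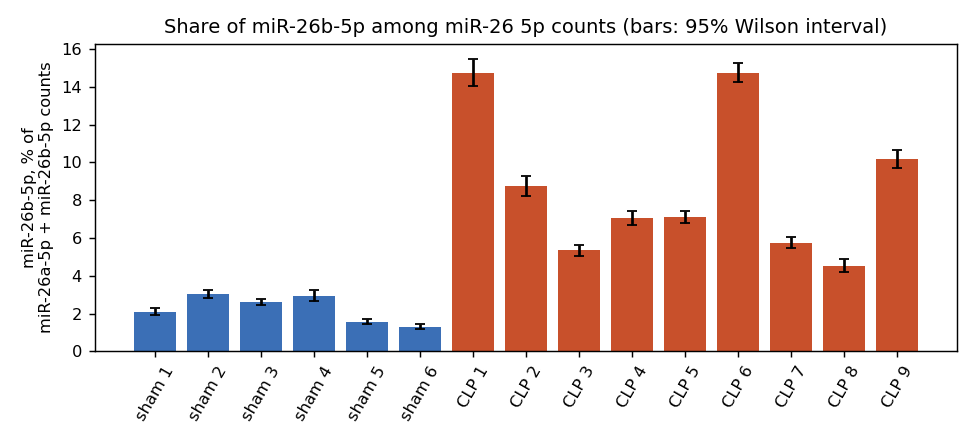
Share of miR-26b-5p among the counts of miR-26a-5p and miR-26b-5p in each library (%, axis from 0; error bars are 95% Wilson intervals). Every CLP library, from 4.53% upward, lies above every sham library, of which the highest is at 3.04%.

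Adapter ligation favours some end sequences, so counts of different miRNAs do not give molar amounts. A ratio within a library does not depend on scaling by depth, but it can still carry differences between libraries that follow sequence, such as GC content. miR-26a-5p had 46.9, 31.9, 37.4, 33.2, 63.4 and 75.8 counts per count of miR-26b-5p in sham libraries 1 to 6. In CLP the ratio ran from 5.78 (CLP 1 and CLP 6) through a median of 13.1 to 21.1 (CLP 8). The groups did not overlap, which follows from the shares above, since both use the same counts. Of all 426 tested miRNAs 19.7% separated the groups in this way by their CPM, whereas 0 of the 3 miR-26 members did so alone. That share is for single miRNAs. A ratio of a miRNA that fell to one that rose adds both changes, and no like share was obtained for ratios. The sham libraries averaged a log2 ratio of 5.51 ± 0.51 (SD, n = 6) and the CLP libraries 3.51 ± 0.67 (n = 9). The difference was -2.0, or a 4.0-fold lower ratio (exact two-sided permutation p = 0.000200, the smallest that 5005 splits can give; adjusted over 2 ratios 0.000400). With the GC trend of each library removed the difference was -1.73 (exact permutation, adjusted p = 0.000400).

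The ratio of the arms of the miR-26b hairpin was higher in CLP on the counts as deposited, but its call was lost once the GC trend of each library was removed. miR-26b-5p had 8.84, 22.9, 10.9, 5.27, 6.90 and 4.58 counts per count of miR-26b-3p in sham libraries 1 to 6. In CLP the ratio ran from 11.8 (CLP 8) through a median of 18.8 to 28.9 (CLP 5). Sham 2, which held the fewest miR-26b-3p counts (36), lay within the CLP range, and the other 5 sham libraries lay below all CLP libraries. The sham libraries averaged a log2 ratio of 3.07 ± 0.84 (SD, n = 6) and the CLP libraries 4.23 ± 0.41 (n = 9). The difference was 1.16, or 2.24-fold, (exact two-sided permutation p = 0.00420, adjusted over 2 ratios 0.00420). Without sham 2 it was 1.45 (exact permutation, adjusted p = 0.000500). The arms differ in GC content by more than the 5p pair does (33.3% and 50.0%), and with the GC trend removed the difference was 0.52 (exact permutation, adjusted p = 0.0955), which did not pass. The trend itself differed between the groups: at miR-26b-5p it ran from -0.49 to -0.25 in sham and from -0.13 to 0.54 in CLP (log2). A technical GC trend and an effect of CLP that follows GC content therefore cannot be told apart.

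**Figure D3:**
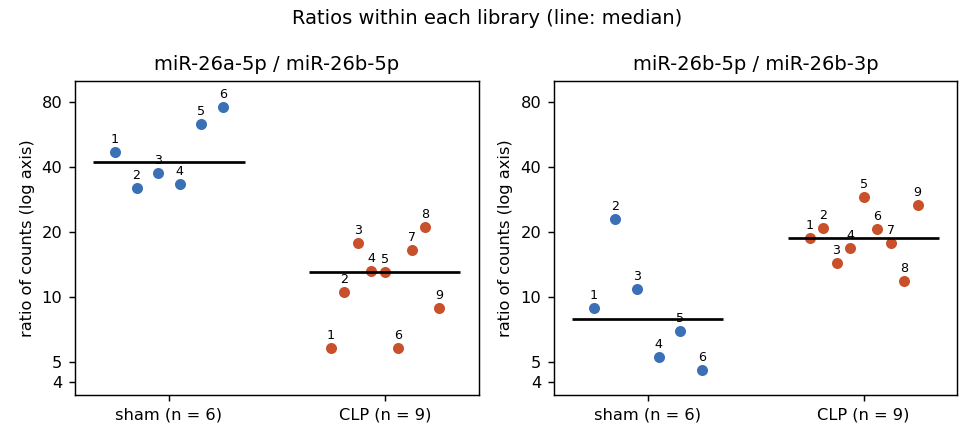
Ratios of counts within each library on a log axis (points carry the replicate number, lines are the group medians). The ratio of miR-26a-5p to miR-26b-5p is lower in all 9 CLP libraries than in any sham library, and the ratio of miR-26b-5p to miR-26b-3p is higher in CLP apart from sham 2, with no correction for GC content, under which the latter difference did not pass.

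The 5p counts were not independent of each other. In 9 of 15 libraries the count of miR-26a-5p ended in 0.5, in the same 9 libraries that of miR-26b-5p did too, and their sum was whole in all 15. Such values arise when a read that matches both sequences is divided between them. The table does not give the number of divided reads, and the miR-26b-5p level in particular, which is far smaller than that of miR-26a-5p, is uncertain by an unknown amount. The sum of both is free of this, but it is mostly miR-26a-5p and does not bear on the rise of miR-26b-5p. It averaged 3615 ± 892 CPM over the sham libraries (SD, n = 6) and 2161 ± 461 CPM over the CLP libraries (n = 9), a log2 fold change of -0.79 ± 0.19 (SE; edgeR adjusted p = 0.00213). For miR-26b-3p the count was whole in all 15 libraries, which does not show that no read was divided.

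No relation between members over the libraries of a group passed a test. Over 6 relations (3 pairs in each group, log2 CPM), the strongest was that of miR-26b-5p with miR-26b-3p in the 9 CLP libraries, with Pearson's r = 0.51 (exact permutation p = 0.154, adjusted 0.660) and Spearman's rho = 0.73 (exact permutation p = 0.0311, adjusted 0.187). Leaving out CLP 8 and CLP 9, the libraries farthest from the median of miR-26b-5p, r was 0.65. For miR-26a-5p and miR-26b-5p in CLP, r was -0.34 (exact permutation p = 0.371, adjusted 0.660) and rho -0.08 (exact permutation p = 0.843, adjusted 1.0). That r was 0.26 without CLP 6 and CLP 1, so its sign rested on those libraries.

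The profiles of the members over the 15 libraries were compared with those of all tested miRNAs by the root mean square difference of log2 CPM, each profile centred on its own mean. The difference between the groups is part of this distance. That the nearest miRNAs moved like their member is therefore largely given by the choice, and their fold changes only describe them. The nearest to miR-26a-5p were miR-221-5p (0.31), miR-27b-5p (0.32) and miR-195a-3p (0.34), where the median over all was 0.90. Of these miR-221-5p and miR-195a-3p fell, with log2 fold changes of -0.81 ± 0.17 and -1.08 ± 0.27 (SE; adjusted p by edgeR = 0.000780 and 0.00333), and miR-27b-5p was at -0.58 ± 0.24 (0.0557). The nearest to miR-26b-5p were miR-7a-5p (0.29), miR-15b-5p (0.33) and miR-15a-5p (0.34), where the median over all was 1.0. These rose by 1.53, 1.17 and 0.98 on the log2 scale (edgeR adjusted p = 0.000154, 0.000247 and 0.0116). The nearest to miR-26b-3p were miR-99b-3p (0.31), miR-30a-3p (0.32) and miR-27a-3p (0.32), of which 0 were called. Between miR-26a-5p and miR-26b-5p the difference was 1.13, wider than the median distance of either to the tested miRNAs.

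Other miRNAs that share a feature with miR-26 moved in both directions. Of 26 tested miRNAs from introns of protein-coding genes 14 rose and 3 fell (53.8% and 11.5%, against 25.4% and 21.8% of all tested), with a median log2 fold change of 1.07 and a range from -4.28 to 2.35. The most abundant of them were miR-25-3p, from an Mcm7 intron, at 1.17 ± 0.27 (SE; edgeR adjusted p = 0.00146), the cartilage-linked miR-140-3p, from a Wwp2 intron, at -0.18 ± 0.15 (0.340), and miR-186-5p at -0.52 ± 0.24 (0.0830). miR-26a-5p was thus lower and miR-26b-5p close to the median of that list.

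Of 24 tested miRNAs from families that MYC represses along with miR-26, 8 rose and 5 fell (33.3% and 20.8%, against 25.4% and 21.8% of all tested), with a median of 0.17 and a range from -2.30 to 2.52. The most abundant were miR-22-3p at 1.94 ± 0.34 (SE; edgeR adjusted p = 0.000153), miR-29a-3p at 1.47 ± 0.23 (3.83e-05) and miR-146a-5p, a feedback regulator of Toll-like receptor signalling, at -0.15 ± 0.28 (0.692). Of 8 tested entries known, like miR-26a, to target Ezh2, 2 rose and 0 fell, with a median of 0.30. The shares were 25% and 0%, against 25.4% and 21.8% of all tested. The entries stand for 7 listed miRNAs, since miR-101a-3p is counted both alone and together with miR-101c. The most abundant of these were let-7c-5p at 1.12 ± 0.24 (SE; edgeR adjusted p = 0.000954), let-7b-5p at 0.44 ± 0.30 (0.230) and miR-101a-3p, counted with miR-101c, at 0.16 ± 0.20 (0.532).

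GC content moved with the fold changes over the whole table and is given beside the members. Among tested miRNAs with a sequence its median was 45.5% in those that rose (97), 54.2% in those that fell (79) and 50.0% in the rest (197). Within 5 percentage points of miR-26a-5p there were 128 other tested miRNAs, with a median log2 fold change of 0.49, and 14.1% of them lay below its -0.83. Within 5 points of miR-26b-5p there were 58, with a median of 0.46, and 70.7% of them lay below its 1.15. Within 5 points of miR-26b-3p there were 151, with a median of 0.33. Among miRNAs of like GC content, miR-26a-5p was therefore in the lower part and miR-26b-5p above the median.

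**Figure D4:**
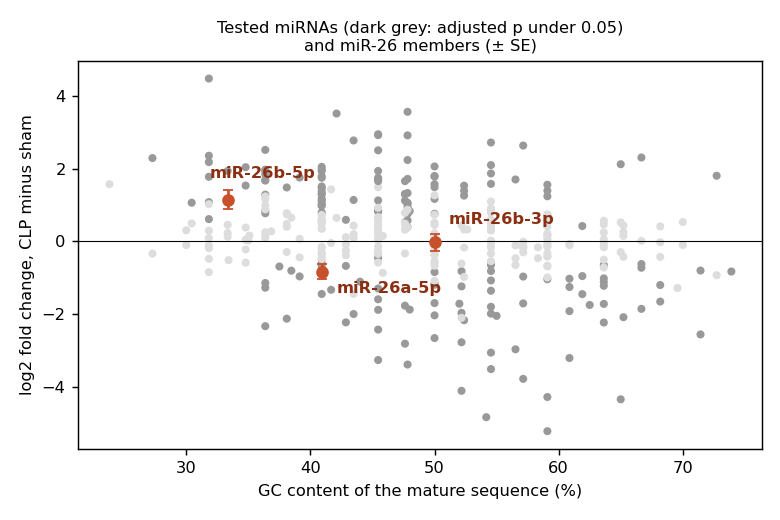
Log2 fold change (CLP minus sham) of the 373 tested miRNAs with a RefSeq sequence against GC content of the mature sequence (%), with called miRNAs in dark grey and the miR-26 members in red (± SE). miR-26b-5p, at 33.3% GC, lies above 0 and miR-26a-5p, at 40.9%, below it, among miRNAs of like GC whose medians were 0.46 and 0.49.

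The opposite calls of miR-26a-5p and miR-26b-5p held under the 11 other settings and on leaving out any 1 library. None of these changed how reads matching both sequences were divided, so the miR-26b-5p level keeps the uncertainty given above. Over these 11 settings the change of miR-26a-5p lay between -1.16 and -0.79 and that of miR-26b-5p between 0.53 and 1.15, each past the threshold in all 11. With red cell miRNAs removed, which left the miR-26 counts unchanged, they were -0.90 and 1.05 (edgeR adjusted p = 0.00162 and 0.00426). With scaling by library size alone they were -1.06 and 0.92 (edgeR adjusted p = 0.000554 and 0.00959). Without CLP 1 and CLP 5 they were -0.79 and 1.07 (0.00388 and 0.00296).

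**Figure D5:**
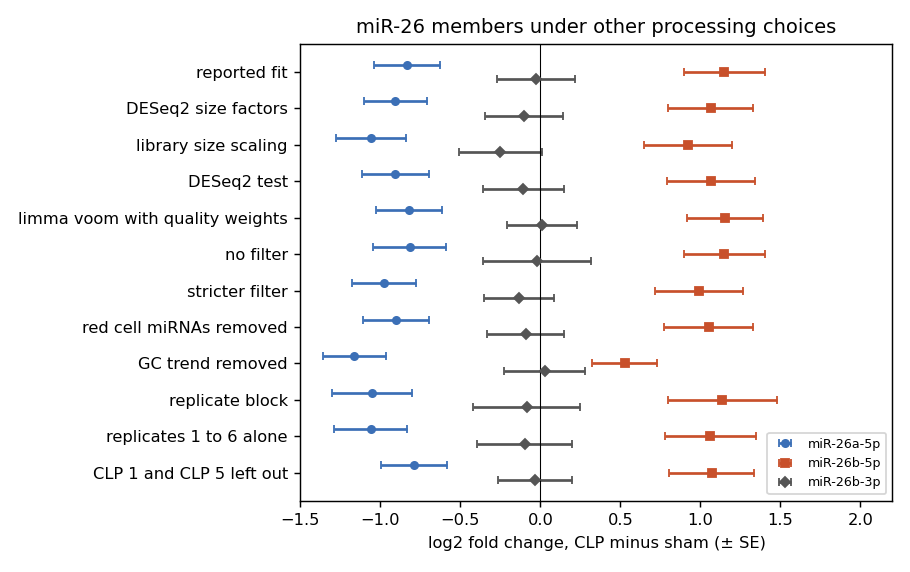
Log2 fold change of each member (CLP minus sham, ± SE) in the reported fit and under 11 other settings. miR-26a-5p stays below 0 and miR-26b-5p above 0 in each, with miR-26b-5p lowest, at 0.53, once the GC trend is removed, and miR-26b-3p stays near 0.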

How the data were processed

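Small RNA libraries were made from plasma RNA with a Norgen Biotek kit by adapter ligation, reverse transcription, indexing PCR and gel excision, per the labels' protocols. The deposited table, named for the exceRpt pipeline, holds expected counts per mature miRNA that the authors did not scale for depth, and 4.56% of the values were not whole. Per the submitters' processing notes, the genome was mm10. Not given in the sources used here were the aligner, trimming and annotation release. Columns were matched to samples by the run names in the labels.

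Counts were rounded, filtered with filterByExpr, scaled by TMM and tested with edgeR 4.0.16 in R 4.3.3 (robust quasi-likelihood F test, no covariate, all 15 libraries, Benjamini-Hochberg over 426 miRNAs, threshold 0.05, two-sided). SE is the absolute log2 fold change over the square root of F. Ratios used a pseudocount of 0.5 counts for the tests, none for the values by library, and exact permutation over 5005 splits. Profiles used log2 CPM with prior count 2. For the GC trend, a loess curve (span 0.75) of each library's deviation on GC of the mature sequence (373 of 426 tested miRNAs, 87.6%) was used as an offset, and its value was subtracted from the log2 ratios in an alternative added after seeing the data. Libraries of a group were never copies (chi-square per degree of freedom at least 235). Alternatives were DESeq2 1.42.0, limma 3.58.1 (voom with quality weights), DESeq2 size factors, library size scaling, no filter, a stricter filter (10 CPM in 6 libraries), removal of red cell miRNAs or the GC trend, a replicate block, replicates 1 to 6 alone, no CLP 1 and CLP 5, and leaving out each library. Sequences came from RefSeq, with 5 of 5 miR-26 arms matched.

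Named were the members, the other 3p arms, the 3 most abundant entries of each list and the 3 most similar profiles per member. For the marker lists counts are given, with summed levels for some, and single entries are named for the platelet, hepatocyte and myeloid lists. Members and lists were chosen with earlier results of these data known.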

Additional observations from a re-analysis of the deposited data

How the results depend on the processing

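Leaving out each library in turn, the log2 fold change lay between -1.01 and -0.76 for miR-26a-5p, between 0.93 and 1.29 for miR-26b-5p and between -0.85 and -0.66 for their sum, and all these fits passed the threshold. For miR-26b-3p it lay between -0.20 and 0.02 and never passed. Its sign, which carries no call, was reversed without sham 3 (0.02), with limma voom (0.0094) and with the GC trend removed (0.026). The log2 ratio of miR-26a-5p to miR-26b-5p differed by -2.11 to -1.85 and that of miR-26b-5p to miR-26b-3p by 0.99 to 1.45. With the GC trend removed, an alternative for the ratios that was chosen after seeing the data, they differed by -1.73 (exact permutation, adjusted p = 0.000400) and 0.52 (0.0955). The number of called miRNAs was 201, between 184 and 213 on leaving out a library, 141 with the stricter filter and 307 with no filter, where 1182 rows were tested. The labels do not say that equal numbers pair libraries, and deviations of same-numbered libraries correlated above 0.1 in 0 of 6 pairs, with 0 of 6 sham libraries closest to their own number. With the replicate block over 12 libraries, 152 miRNAs were called, miR-26a-5p was at -1.05 (edgeR adjusted p = 0.00836), miR-26b-5p at 1.14 (0.0226), miR-26b-3p at -0.09 (0.852) and the sum at -0.92 (0.0147). With the replicate block as 6 paired differences, the ratios differed by -2.17 and 1.21, each with an exact permutation adjusted p of 0.0625 (for the first, an unadjusted 0.03125 is the smallest that 6 pairs can give). All 11 other settings kept the direction and call of the sum (-1.19 to -0.73). miR-26b-3p rested on 36 to 134 counts per library, and the 3p arms of miR-26a on at most 6.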

Other observations

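The opposite movement of miRNAs that share a seed was looked for in the whole table after the miR-26 values had been seen. The 373 tested entries with a RefSeq sequence held 39 seeds shared by at least 2 entries, which gave 130 pairs that are not independent of each other. Both entries were called in 30 pairs, and in 4 of these, from 3 seeds, the calls were in opposite directions. These were miR-26a-5p with miR-26b-5p, the clustered miR-222-3p with miR-221-3p (-1.24 and 1.06 on the log2 scale), and miR-195a-5p (-0.68) with each of miR-15b-5p (1.17) and miR-15a-5p (0.98). The miR-26 pair differed by 1.98, the 16th largest difference of the 130, where the median was 0.72. In 68 of the 108 pairs of unequal GC content (63.0%) the entry with the lower GC content had the higher log2 fold change, as in the miR-26 pair.

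Of 93 hairpins with both arms tested, 43 had exactly 1 arm called, as miR-26b did, and 9 had arms called in opposite directions. The arms of miR-26b differed by 1.18 in log2 fold change, the 34th largest of the 93, where the median was 0.83. In 43 of 68 hairpins with arms of unequal GC content (63.2%) the arm with the lower GC content had the higher log2 fold change, as in miR-26b.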
